A study of Arabidopsis thaliana with 12 samples.

Results

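The red, blue and UV-B photoreceptors of Arabidopsis were described together with the pair of regulators on which their signals converge. The group holds 10 genes chosen by name, which are the phytochromes *PHYA* (AT1G09570), *PHYB* (AT2G18790), *PHYC* (AT5G35840), *PHYD* (AT4G16250) and *PHYE* (AT4G18130), the cryptochromes *CRY1* (AT4G08920) and *CRY2* (AT1G04400), the UV-B receptor gene *UVR8* (AT5G63860), *COP1* (AT2G32950) and *HY5* (AT5G11260). They are 10 of the 37336 genes in the count files, and all 10 were among the 20664 genes with enough reads to be tested. RNA-Seq was performed on 4-day-old Col-0 seedlings in 4 groups of 3 libraries each, 12 libraries in all. WT seedlings were exposed to 29 °C for 6 h (WT 29 °C). OE *APOLO-1* seedlings, which carry the lncRNA *APOLO* behind the constitutive 35S promoter, *vim1-3* seedlings, which carry an insertion in the methylcytosine-binding protein gene *VIM1*, and WT seedlings were kept at 23 °C. All grew in 16 h of light and 8 h of dark. Each of the OE *APOLO-1* and *vim1-3* groups comes from 1 line, so an effect of the transgene or insertion and an effect of that particular line cannot be told apart. The labels give each library a replicate letter from A to C but do not say what a replicate is. The study's methods name 3 independent biological replicates for each genotype. The p-values measure the spread between these libraries, which the fit of all 12 libraries takes to be equal in the 4 groups.

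Phytochromes are proteins with a bilin chromophore that switch between an inactive form absorbing red light and an active form absorbing far-red light. Active phytochromes enter the nucleus, where they act on PIF transcription factors, and the active form of phytochrome B reverts faster to the inactive form in warmth, so that it also senses temperature. Cryptochromes absorb blue light through a flavin, and UVR8 absorbs UV-B through its own tryptophans. All of them restrain COP1, a RING E3 ubiquitin ligase that works with SPA proteins and marks HY5 for degradation. HY5 is a bZIP transcription factor that binds DNA elements with an ACGT core and promotes seedling development in light. Seedlings that sense warmth elongate their hypocotyls, a response in which phytochrome B, COP1, HY5 and the PIFs all take part. Much of this control acts on the proteins, which RNA-Seq does not measure.

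Library totals ran from 8824476 to 22925019 counts, and the smallest was the library labelled WT 23 °C replicate C. Counts were scaled with TMM factors from edgeR, so that a normalized count is the number expected in a library of 18009916 counts, the mean effective size. *APOLO* had 4984, 8949 and 11720 counts in OE *APOLO-1*, and *VIM1* had 5, 3 and 1 counts in *vim1-3*. *APOLO* also had 1197 counts in the library labelled WT 23 °C replicate A, against 2 and 1 counts in replicates B and C, so that its *APOLO* level goes against its label. Normalized, this is 1033 counts, also below the 6331 to 10910 of the OE *APOLO-1* libraries. The reason was not tested. The WT 23 °C libraries stood apart in a second way. On the first principal component, which held 58.1% of the variance, the 9 libraries of the other groups lay between 0.33 and 55.1, against −149 and −103 for the libraries labelled WT 23 °C B and C and −29.7 for A. The median SD of log2 CPM between replicates was 0.14 for WT 29 °C, 0.15 for OE *APOLO-1* and 0.10 for *vim1-3*, against 0.24 for WT 23 °C. The fit of all 12 libraries takes the same spread for all groups and does not allow for this difference. Green tissue markers were high in all 12 libraries (summed normalized counts of 6 genes from 668900 to 1019000). Seed markers varied more (summed normalized counts of 7 genes from 447 to 734 in WT 29 °C, 61.5 to 570 in OE *APOLO-1* and 106 to 142 in *vim1-3*, against 26.4 to 225 in WT 23 °C), with *CRU2* at 0 in 8 libraries. Values against WT 23 °C are therefore given with all 3 of its libraries, without the library labelled A, and with that library as the only WT 23 °C library.

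Two-sided tests were made with edgeR's quasi-likelihood method over all genes, and a gene was called changed where its adjusted p (Benjamini-Hochberg, over all genes tested) was below 0.01. Log2 fold changes come with their standard error (SE). In WT 29 °C against WT 23 °C, 3 of the 10 genes were called, among 20.6% of all genes tested. *HY5* was higher, where 7.88% of all genes were higher, and *PHYD* and *PHYE* were lower, where 12.8% were lower. In OE *APOLO-1* against WT 23 °C, 2 of the 10 were called, among 10.3% of all genes. *HY5* was higher and *PHYD* lower, where 2.6% of all genes were higher and 7.68% lower. In *vim1-3* against WT 23 °C the same pair was called in the same directions, among 6.63% of all genes (2.19% higher and 4.45% lower). With so few genes, these shares do not set the 10 apart from the background. The 3 comparisons share the WT 23 °C libraries, so their values for a gene are not independent and are set side by side only.

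Comparisons among the other groups do not use WT 23 °C libraries as one side. Against *vim1-3*, WT 29 °C had *PHYA* higher and *COP1* lower, among 13.6% of all genes called (6.75% higher and 6.88% lower). Against OE *APOLO-1*, WT 29 °C had *COP1* lower, among 8.17% of all genes called (4.7% higher and 3.47% lower). In OE *APOLO-1* against *vim1-3*, 0 of the 10 genes were called by edgeR or by DESeq2, among 1.87% of all genes by edgeR (0.581% higher and 1.29% lower). In that comparison 3 genes (*PHYB*, *PHYC* and *CRY2*) had an unadjusted p below 0.05. These background shares depended on whether the WT 23 °C libraries were in the fit. In a fit of the 9 libraries other than WT 23 °C, 28.1% of all genes were called in WT 29 °C against *vim1-3*, 20.9% in WT 29 °C against OE *APOLO-1* and 9.94% in OE *APOLO-1* against *vim1-3*. Of the 10 genes, 2 (*PHYA* and *COP1*), 3 (*PHYA*, *UVR8* and *COP1*) and 0 were called in that fit.

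**Figure D1:**
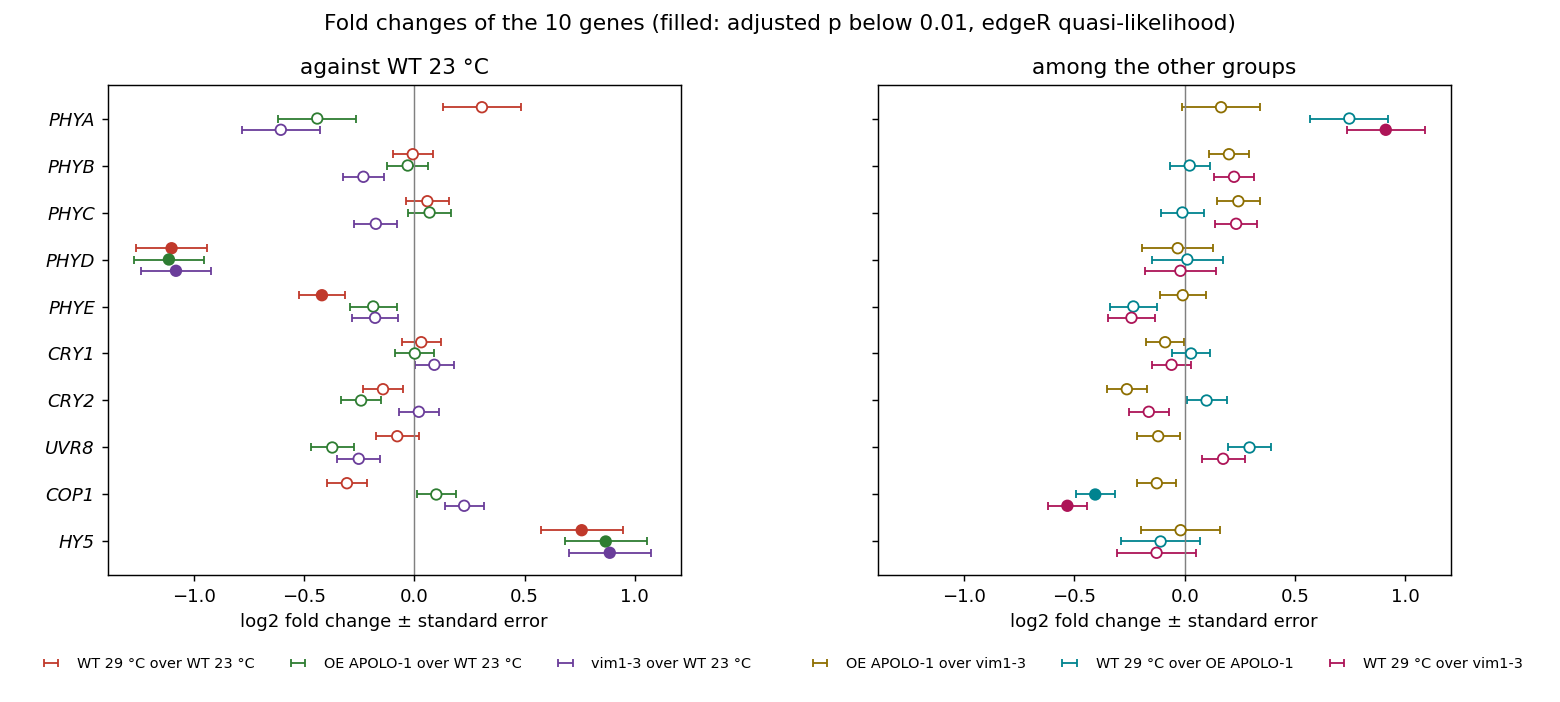
Log2 fold changes ± standard error (horizontal axis) of the 10 genes (vertical axis) in 6 comparisons, against WT 23 °C on the left and among the other groups on the right, from the fit of all 12 libraries. Filled points passed an adjusted p of 0.01, and *PHYD* and *HY5* are the genes filled in all 3 comparisons with WT 23 °C, on opposite sides of 0.

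Separation without overlap between groups of 3 was common in these data. It held for 43.9% of all genes in WT 29 °C against WT 23 °C, 33.5% in OE *APOLO-1* against WT 23 °C, 36.2% in *vim1-3* against WT 23 °C and 36.5% in OE *APOLO-1* against *vim1-3*. It held for 42.2% in WT 29 °C against OE *APOLO-1* and for 54.1% in WT 29 °C against *vim1-3*. Among the 10 genes it held for 7 in this last comparison and for 4 in each of the other 5 comparisons. Statements that groups did not overlap are to be read against these shares.

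Levels of different genes were compared per kilobase of exon. *CRY2*, *CRY1*, *UVR8* and *PHYA* held the first 4 places in every group, and *PHYD* held the last. In WT 29 °C, *CRY2* averaged 955 ± 22.0, *CRY1* 948.4 ± 17.3, *UVR8* 940.4 ± 42.8 and *PHYA* 892.4 ± 74.3 normalized counts per kilobase (SD, n = 3), and each overlapped its neighbour in this order. *HY5* came next at 213.8 ± 23.96 per kilobase, above *PHYB* at 163.5 ± 4.22 and *COP1* at 153.3 ± 15.1, and these levels of *PHYB* and *COP1* overlapped. *PHYC* at 113.7 ± 5.98, *PHYE* at 82.5 ± 5.49 and *PHYD* at 34.6 ± 2.22 per kilobase followed without overlap (SD, n = 3 each). *HY5* held place 5 of 10 per kilobase in WT 29 °C, OE *APOLO-1* and also *vim1-3*, at 213.8 ± 23.96, 230.8 ± 20.9 and 233.7 ± 6.12 normalized counts per kilobase. In WT 23 °C it held place 7 at 125.7 ± 39.3 per kilobase (SD, n = 3), below *COP1* at 189.6 ± 6.66 and *PHYB* at 164.6 ± 16.6. *HY5* overlapped *COP1*, the next in order, in OE *APOLO-1* and *vim1-3*, and its neighbours *PHYB* and *PHYE* in WT 23 °C.

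**Figure D2:**
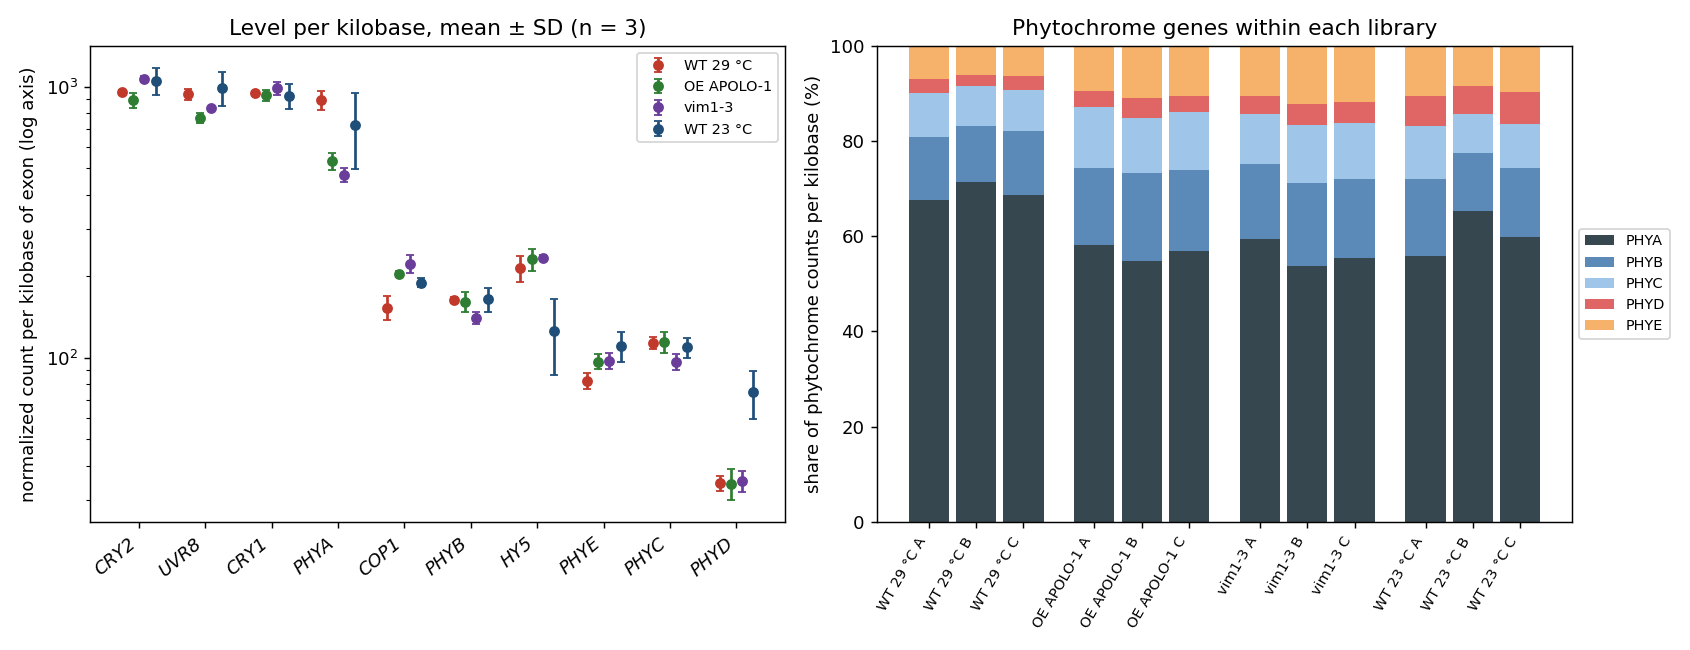
On the left, mean normalized counts per kilobase of exon ± SD (n = 3, log axis) for each gene in WT 29 °C, OE *APOLO-1*, *vim1-3* and WT 23 °C. On the right, the share of each phytochrome gene in the phytochrome counts per kilobase of each library (percent). *PHYD* is the lowest gene in every group, and *PHYA* takes 53.7% to 71.5% of the phytochrome counts.

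*PHYD* encodes the closest relative of phytochrome B and has a minor, overlapping role in red-light and shade responses. It lies on the minus strand of chromosome 4 (TAIR10.1, 9195247 to 9199840), with 4204 bases of exon. *PHYD* had 150.2, 134.5 and 151.2 normalized counts in WT 29 °C. It had 143.5, 163.1 and 125.6 in OE *APOLO-1* and 132.7, 153.1 and 156.7 in *vim1-3*, against 240.9, 359.6 and 339.6 in WT 23 °C. All 9 libraries of the first 3 groups lay below all 3 WT 23 °C libraries, and those 3 groups overlapped one another. The log2 fold change was −1.10 in WT 29 °C (SE 0.16, edgeR adjusted p = 0.000307). In OE *APOLO-1* it was −1.11 (SE 0.16, edgeR adjusted p = 0.000855), and in *vim1-3* it was −1.08 (SE 0.16, edgeR adjusted p = 0.00196). *PHYD* stood at 0.466, 0.462 and 0.472 of its WT 23 °C level. In tissue of many cell types, fewer cells of a type and less RNA per cell cannot be told apart.

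*PHYD* was lower with either choice of WT 23 °C library. Without the library labelled A the log2 fold changes were −1.27, −1.28 and −1.25 across WT 29 °C, OE *APOLO-1*, then *vim1-3*, with adjusted p-values of 9.72e-07, 1.16e-06 and 1.93e-06 (edgeR). With that library as the only one of WT 23 °C they were −0.73, −0.74 and −0.71, with adjusted p-values of 0.0035, 0.00755 and 0.0113 (edgeR), and the last did not pass. That fit takes the single library to vary like those of the other groups. With edgeR on the 6 libraries of each comparison, *PHYD* had adjusted p-values of 0.00948 for WT 29 °C, 0.0303 for OE *APOLO-1* and 0.0472 for *vim1-3*. Leaving out any 1 of the *vim1-3* libraries also ended the *vim1-3* call, with an adjusted p of at most 0.0146 (edgeR).

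The summed level of 6 wounding and jasmonate genes was, like *PHYD*, lower in the 9 libraries of the other groups than in any WT 23 °C library. The summed normalized counts were 2173 to 2284 in WT 29 °C, 1227 to 1434 in OE *APOLO-1* and 949 to 1136 in *vim1-3*. In WT 23 °C the sums were 2317, 8705 and 6935 in the libraries labelled A, B and C, and none of the 6 genes was at 0 in any library. Of the 6, 2 were lower in WT 29 °C (*LOX2* and *JAZ10*) and 3 were lower in OE *APOLO-1* as well as *vim1-3* (*LOX2*, *JAZ10* and *AOS*), each against WT 23 °C. *VSP1*, a vegetative storage protein gene of the same list, went the other way in 2 groups, with log2 fold changes of 0.96 in WT 29 °C (edgeR adjusted p = 0.0359) and 0.85 in OE *APOLO-1* (edgeR adjusted p = 0.078), and had −0.71 in *vim1-3* (edgeR adjusted p = 0.169). None of these *VSP1* values passed. The root marker sums given with *HY5* separated the same libraries in the other direction, so neither list is particular to *PHYD* or to *HY5*. The part of wounding and jasmonate in the *PHYD* result was not tested.

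The promoters of *PHYD* and of *PHYB* are shown because both genes carry G-boxes (CACGTG, read the same on both strands) close to the start and only *PHYD* was called. Each run holds the 250 bases before the annotated gene start in the RefSeq TAIR10.1 genome, in the direction of the gene, with every ACGT in capitals. The *PHYD* run is chr4:9199841-9200090 on the minus strand and the *PHYB* run is chr2:8139506-8139755 on the plus strand.
PHYD: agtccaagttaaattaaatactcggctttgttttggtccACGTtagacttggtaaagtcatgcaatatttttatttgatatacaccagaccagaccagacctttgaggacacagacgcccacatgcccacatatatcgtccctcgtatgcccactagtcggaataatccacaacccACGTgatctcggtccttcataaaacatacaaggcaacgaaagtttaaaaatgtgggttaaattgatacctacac
PHYB: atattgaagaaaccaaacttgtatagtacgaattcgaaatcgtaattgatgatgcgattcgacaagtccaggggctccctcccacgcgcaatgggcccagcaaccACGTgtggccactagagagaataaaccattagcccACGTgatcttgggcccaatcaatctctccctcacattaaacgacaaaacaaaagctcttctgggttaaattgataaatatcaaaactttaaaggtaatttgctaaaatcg
An ACGT core was present in 6 of the 10 promoters (*PHYA*, *PHYB*, *PHYC*, *PHYD*, *COP1* and *HY5*), against 44.1% of 27443 protein-coding promoters of the same length. A G-box, which contains the core, was found in *PHYB* (2 copies) and *PHYD* (1 copy) and in 6.49% of all promoters. The C-box GACGTC (2.27% of all promoters) and the A-box TACGTA (4.94%) were not found in the 10, and *PHYE*, *CRY1*, *CRY2* and *UVR8* held none of these letters in this window. The *PHYD* cores lay 211 and 74 bases and the *PHYB* cores 145 and 110 bases before the start, counted at the A of the core. These matches are descriptions of sequence and not evidence of binding.

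*PHYD* reads were also checked for mixing with those of *PHYB*, since the 2 genes are the most alike of the family. None of the 75-base stretches of *PHYD* exons, the read length of the study, was found elsewhere in the genome, and the same held for the other 9 genes. The coding stretches in which *PHYB* (chr2:8141838-8141912, plus strand) and *PHYD* (chr4:9197641-9197715, minus strand) come closest differ at 6 of 75 bases, shown in capitals.
PHYD: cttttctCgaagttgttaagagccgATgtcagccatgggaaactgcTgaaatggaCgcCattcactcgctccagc
PHYB: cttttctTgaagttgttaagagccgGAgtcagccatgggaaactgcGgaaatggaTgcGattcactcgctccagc
Other phytochrome pairs differed at 12 to 18 of 75 bases at their closest, and *CRY1* and *CRY2* at 11. *PHYE* shares 60 exon bases with its neighbour AT4G18140 on the same strand, and reads there cannot be assigned with certainty.

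*PHYB*, the main phytochrome of light-grown seedlings, did not follow *PHYD*. It had 757.2, 719.6 and 744.4 normalized counts in WT 29 °C, 725.3, 791.4 and 669.1 in OE *APOLO-1*, and 610.6, 671.2 and 621.4 in *vim1-3*, against 659.6, 801.4 and 774.4 in WT 23 °C. The *vim1-3* libraries lay below WT 29 °C without overlap, and the other pairs of groups overlapped. The log2 fold change against WT 23 °C was −0.01 in WT 29 °C (SE 0.09, edgeR adjusted p = 0.962) and −0.03 in OE *APOLO-1* (SE 0.09, edgeR adjusted p = 0.85). In *vim1-3* it was −0.23 (SE 0.09, edgeR adjusted p = 0.0958), and without the library labelled WT 23 °C A it was −0.32 and passed (edgeR adjusted p = 0.00916).

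*PHYA* encodes the light-labile phytochrome that acts in far-red and very dim light. It had 4373, 4998 and 4313 normalized counts in WT 29 °C. It had 2947, 2654 and 2551 in OE *APOLO-1* and 2588, 2313 and 2366 in *vim1-3*, against 2576, 4861 and 3628 in WT 23 °C. The WT 29 °C libraries were high, the OE *APOLO-1* and *vim1-3* libraries were low, and WT 23 °C spanned both, with the library labelled A at the low end. Against *vim1-3*, WT 29 °C had a log2 fold change of 0.91 (SE 0.18, edgeR adjusted p = 0.00306), with no overlap. Leaving out WT 29 °C replicate B or any 1 of the *vim1-3* libraries ended this call, with an adjusted p of at most 0.017 (edgeR). Against OE *APOLO-1* it was 0.75 (SE 0.18, edgeR adjusted p = 0.013), also with no overlap but short of the threshold. This difference passed in 8 of 22 alternative fits, among them DESeq2 on all 12 libraries (adjusted p = 0.000956) and edgeR on the 6 libraries of the comparison (adjusted p = 4.06e-05), and in the rest the adjusted p reached up to 0.0536 (edgeR).

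Against WT 23 °C no *PHYA* difference passed, and the values turned on the library labelled A. With all 3 WT 23 °C libraries the log2 fold change was 0.31 for WT 29 °C, −0.44 for OE *APOLO-1* and −0.61 for *vim1-3*, with adjusted p-values of 0.197, 0.0926 and 0.0329 (edgeR). Without that library the values were 0.10, −0.65 and −0.81, with adjusted p-values of 0.501, 0.000261 and 3.51e-05 (edgeR). With that library alone they were 0.82, 0.08 and −0.09, with adjusted p-values of 0.000101, 0.771 and 0.689 (edgeR). The size of the *PHYA* difference in each group thus depended on which WT 23 °C libraries were used, and in OE *APOLO-1* and *vim1-3* no difference was measurable against the library labelled A alone. Markers of time of day differed between the groups in which *PHYA* differed. Their summed normalized counts over 10 genes were 10970 to 11220 in WT 29 °C, 13760 to 14540 in OE *APOLO-1* and 17030 to 17680 in *vim1-3*, against 9724 to 14000 in WT 23 °C. None of the 10 was at 0, and 5 of them were lower in WT 29 °C than in *vim1-3*. Their part in the *PHYA* result was not tested.

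*PHYE*, which acts with *PHYB* and *PHYD* in the shade response, was lower in WT 29 °C. It had 344.5, 321.9 and 301.5 normalized counts in WT 29 °C, 369.7, 406.4 and 360.1 in OE *APOLO-1* and 355.9, 405 and 384.1 in *vim1-3*, against 373, 479.8 and 443.5 in WT 23 °C. The WT 29 °C libraries lay below those of every other group, and the other 3 groups overlapped. The log2 fold change in WT 29 °C against WT 23 °C was −0.42 (SE 0.11, edgeR adjusted p = 0.00935). It was −0.19 in OE *APOLO-1* and −0.18 in *vim1-3*, with adjusted p-values of 0.229 and 0.251 (edgeR). The call in WT 29 °C passed in 2 of 21 alternative fits, among them DESeq2 on all 12 libraries (adjusted p = 0.00778). It was lost with RLE or upper-quartile factors and with the other count filters. It held in 1 of the 12 fits that left out a library, the one without the library labelled WT 23 °C A (−0.52, edgeR adjusted p = 0.000561). In the other 11 fits the adjusted p reached up to 0.0419, and with the library labelled A alone it was 0.234 (edgeR).

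*PHYC*, which works in pairs with other phytochromes, had 446.3, 444.5 and 406.1 normalized counts in WT 29 °C, 478.9, 423.2 and 404.8 in OE *APOLO-1* and 339.8, 389.2 and 375 in *vim1-3*, against 379.9, 448.1 and 417.5 in WT 23 °C. The *vim1-3* libraries were lowest and did not overlap WT 29 °C or OE *APOLO-1*. No *PHYC* difference passed the test, and its log2 fold changes against WT 23 °C were 0.06, 0.07 and −0.17 across WT 29 °C, OE *APOLO-1*, then *vim1-3* (SE 0.10 each).

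Within a library, the phytochrome genes can be set against their own sum, which removes the scaling between libraries. *PHYA* made up 69.3% ± 1.96 of the phytochrome counts per kilobase in WT 29 °C, 56.7% ± 1.73 in OE *APOLO-1*, 56.2% ± 2.90 in *vim1-3* and 60.4% ± 4.79 in WT 23 °C (SD, n = 3 each). *PHYD* made up 2.70% ± 0.32 in WT 29 °C, 3.65% ± 0.38 in OE *APOLO-1*, 4.16% ± 0.41 in *vim1-3* and 6.35% ± 0.47 in WT 23 °C (SD, n = 3 each). Its highest share outside WT 23 °C was 4.47% and its lowest in WT 23 °C was 5.88%, so the library labelled A did not overlap the other groups in this measure. *PHYB* made up 12.7% ± 0.98 in WT 29 °C, 17.2% ± 1.16 in OE *APOLO-1*, 16.6% ± 0.90 in *vim1-3* and 14.3% ± 1.99 in WT 23 °C (SD, n = 3 each). A share also moves with the level of the other genes in the sum. Per kilobase, *PHYB* averaged 163.5 in WT 29 °C and 160.9 in OE *APOLO-1*, and *PHYD* 34.6 and 34.3. *PHYA*, the largest part of the sum, averaged 892.4 and 531.6 in these groups. The sum of the 5 genes was 1287 ± 72.7 normalized counts per kilobase in WT 29 °C, 938.2 ± 58.7 in OE *APOLO-1*, 843.5 ± 9.53 in *vim1-3* and 1180 ± 276 in WT 23 °C (SD, n = 3 each). WT 29 °C was above OE *APOLO-1* and *vim1-3* without overlap, and WT 23 °C spanned the range.

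**Figure D3:**
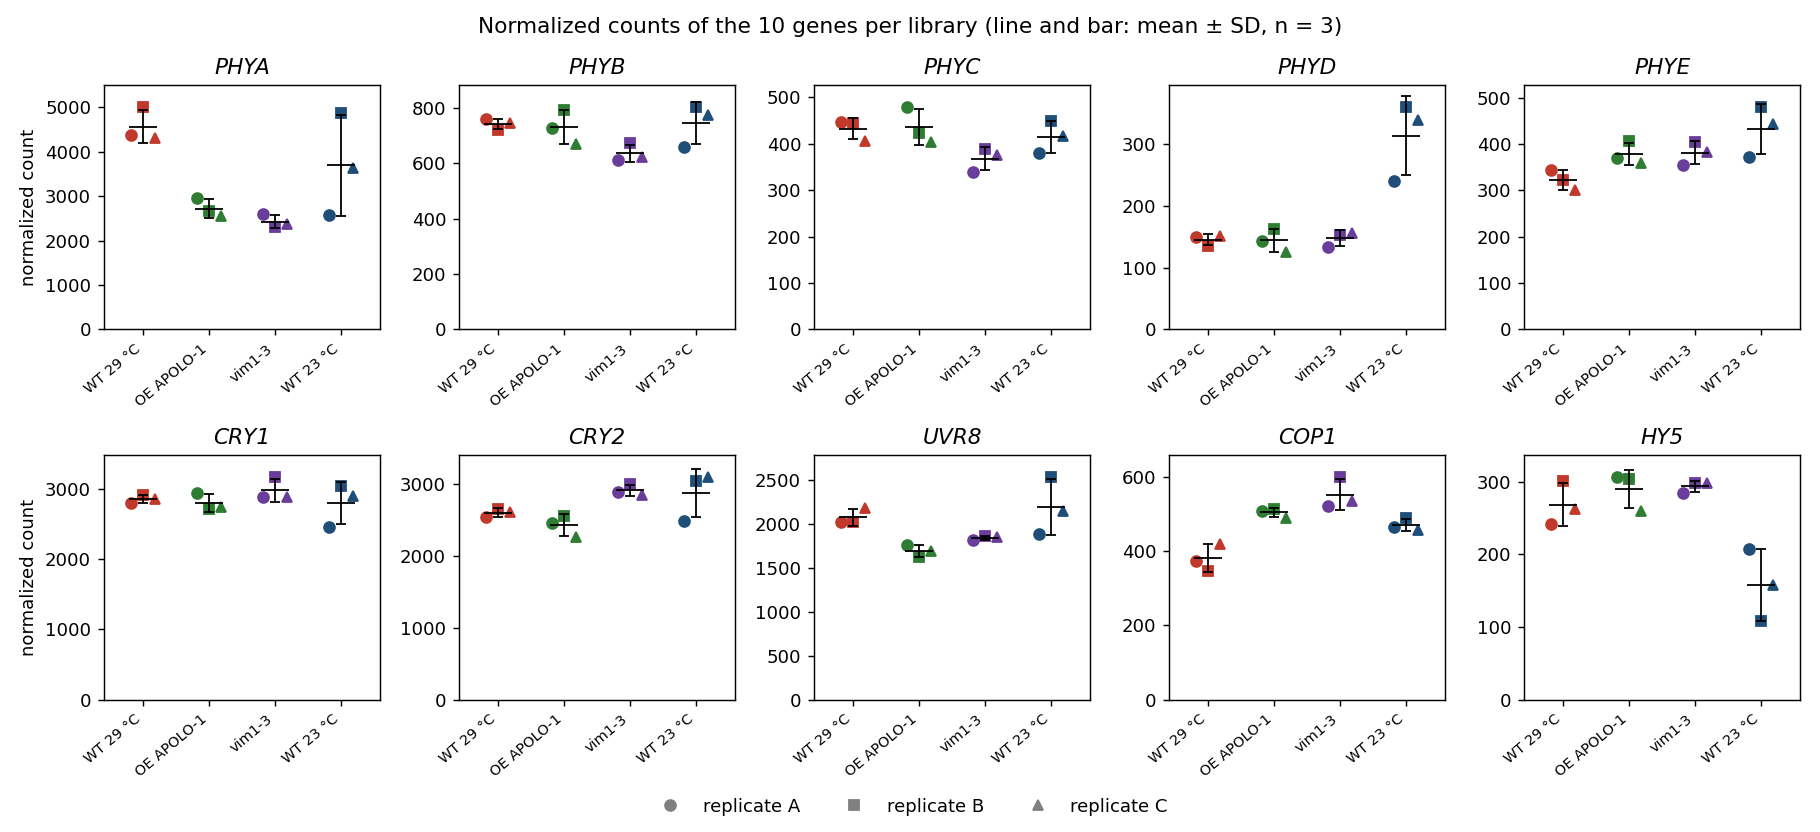
Normalized counts (vertical axes from 0) of each of the 10 genes in the 3 libraries each of WT 29 °C, OE *APOLO-1*, *vim1-3* and WT 23 °C, with symbols for replicates A, B and C and a line and bar for the mean ± SD. *PHYD* is high and *HY5* low in all 3 WT 23 °C libraries, and *PHYA* spreads from 2576 to 4861 within WT 23 °C.

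Neither cryptochrome was called in any comparison with all 12 libraries. *CRY1*, the main blue-light receptor of seedling greening, ranged from 2464 to 3170 normalized counts over the 12 libraries, with its lowest value in the library labelled WT 23 °C A. It averaged 2862 in WT 29 °C, 2805 in OE *APOLO-1*, 2983 in *vim1-3* and 2802 in WT 23 °C, and all groups overlapped WT 23 °C. Its log2 fold changes against WT 23 °C were 0.03, 0.00 and 0.09 (SE 0.09 each). *CRY2*, the light-labile cryptochrome best known for its role in flowering, had 2466, 2559 and 2271 normalized counts in OE *APOLO-1* and 2894, 3004 and 2852 in *vim1-3*. The OE *APOLO-1* libraries were the lower ones, without overlap, but the log2 fold change of −0.26 did not pass (SE 0.09, edgeR adjusted p = 0.122). *CRY2* in WT 29 °C had 2541, 2660 and 2615 normalized counts, against 2490, 3046 and 3096 in WT 23 °C. Against WT 23 °C the *CRY2* difference was −0.24 in OE *APOLO-1* (edgeR adjusted p = 0.0746), and without the library labelled A it was −0.34 and passed (edgeR adjusted p = 0.00253). *CRY1* and *CRY2* were near equal per kilobase, with *CRY1* at 49.8% ± 0.13 of their sum in WT 29 °C, 51.1% ± 1.83 in OE *APOLO-1*, 48.0% ± 0.72 in *vim1-3* and 46.8% ± 0.84 in WT 23 °C (SD, n = 3 each).

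*UVR8*, whose product senses UV-B as a dimer that falls apart, had 2023, 2023 and 2186 normalized counts in WT 29 °C. It had 1763, 1623 and 1696 in OE *APOLO-1* and 1814, 1859 and 1849 in *vim1-3*, against 1893, 2534 and 2152 in WT 23 °C. OE *APOLO-1* was lowest and overlapped no other group, and *vim1-3* came next. In OE *APOLO-1* against WT 23 °C the log2 fold change was −0.37 (SE 0.10, edgeR adjusted p = 0.0173), short of the threshold, and with DESeq2 on all 12 libraries it passed (adjusted p = 0.00676). Without the library labelled WT 23 °C A it also passed, at −0.47 (edgeR adjusted p = 0.000288), and with that library alone it was −0.16 (edgeR adjusted p = 0.351). In *vim1-3* the values were −0.25 with all libraries (edgeR adjusted p = 0.0869) and −0.35 without the library labelled A (edgeR adjusted p = 0.0036). The difference in WT 29 °C against WT 23 °C was −0.08 (SE 0.10, edgeR adjusted p = 0.57).

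*COP1*, the E3 ligase gene, was lowest in WT 29 °C. It lies on the plus strand of chromosome 2 (TAIR10.1, 13977881 to 13983609), with 2478 bases of exon. *COP1* had 373.9, 345.8 and 420 normalized counts in WT 29 °C. It had 508.1, 513.6 and 489.5 in OE *APOLO-1* and 520.9, 598.2 and 533.2 in *vim1-3*, against 464.5, 488.2 and 456.4 in WT 23 °C. The order was *vim1-3*, OE *APOLO-1*, WT 23 °C and WT 29 °C, with no overlap between any of these neighbours, and the library labelled WT 23 °C A lay between the other WT 23 °C libraries. Against *vim1-3*, WT 29 °C had a log2 fold change of −0.53 (SE 0.09, edgeR adjusted p = 0.00113), which passed in all 22 alternative fits. Against OE *APOLO-1* it was −0.41 (SE 0.09, edgeR adjusted p = 0.00836), which passed in 12 of 22 alternative fits. The call was lost with the replicate block (edgeR adjusted p = 0.0209) and without WT 29 °C replicate A or B, the library labelled WT 23 °C C, or any 1 of the OE *APOLO-1* or *vim1-3* libraries, where the adjusted p reached up to 0.0346 (edgeR). The time-of-day sums given with *PHYA* differed between the same groups, and their part in the *COP1* result was not tested.

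Against WT 23 °C the *COP1* difference in WT 29 °C was −0.31 (SE 0.09, edgeR adjusted p = 0.0196), which did not pass. It was nearly the same without the library labelled A (−0.32) and with that library alone (−0.29), with adjusted p-values of 0.019 and 0.0962 (edgeR). In OE *APOLO-1* and *vim1-3* the differences were 0.10 and 0.23, with adjusted p-values of 0.461 and 0.0921 (edgeR). No *COP1* difference against WT 23 °C passed in any of the 21 alternative fits.

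*HY5*, the transcription factor gene, was higher in all 3 groups than in WT 23 °C. It lies on the minus strand of chromosome 5 (TAIR10.1, 3593335 to 3595073), with 1256 bases of exon. *HY5* had 241.5, 301 and 263.1 normalized counts in WT 29 °C. It had 306.1, 303.9 and 259.6 in OE *APOLO-1* and 284.6, 297.7 and 298.2 in *vim1-3*, against 207.2, 108.6 and 157.9 in WT 23 °C. All 9 libraries of the first 3 groups lay above all 3 WT 23 °C libraries, and those 3 groups overlapped one another. The log2 fold change was 0.76 in WT 29 °C (SE 0.19, edgeR adjusted p = 0.0078). In OE *APOLO-1* it was 0.87 (SE 0.19, edgeR adjusted p = 0.0064) and in *vim1-3* it was 0.89 (SE 0.19, edgeR adjusted p = 0.00803). These are 1.69-fold, 1.83-fold and 1.85-fold.

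The *HY5* calls changed with the libraries used. Without the library labelled A the log2 fold changes were 1.06, 1.17 and 1.19 across WT 29 °C, OE *APOLO-1*, then *vim1-3*, with adjusted p-values of 4.13e-05, 1.79e-05 and 1.84e-05 (edgeR). With that library alone they were 0.37, 0.48 and 0.50, with adjusted p-values of 0.0758, 0.0517 and 0.0406 (edgeR), and none passed. When each of the 12 libraries was left out in turn, the call held in WT 29 °C and in *vim1-3* only without the library labelled WT 23 °C A. In OE *APOLO-1* it held without that library, without the library labelled WT 23 °C B or without WT 29 °C replicate B. In the remaining fits the adjusted p reached up to 0.0343, 0.0286 and 0.0358 (edgeR) across WT 29 °C, OE *APOLO-1*, then *vim1-3*. With edgeR on the 6 libraries of each comparison the adjusted p-values were 0.0667, 0.0697 and 0.0789, and with DESeq2 on all 12 libraries 0.00122, 0.000225 and 0.000269.

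The summed level of 8 root markers was, like *HY5*, higher in the 9 libraries of the other groups than in any WT 23 °C library. The summed normalized counts were 3509 to 4201 in WT 29 °C, 3131 to 3415 in OE *APOLO-1* and 2779 to 3045 in *vim1-3*. In WT 23 °C the sums were 2203, 944 and 1707 in the libraries labelled A, B and C, and *RHD6* was at 0 in the library labelled B. Of the 8, 1 was higher in WT 29 °C (*GL2*) and 2 were higher in OE *APOLO-1* as well as *vim1-3* (*GL2* and *PIN2*), all against WT 23 °C. *SCR*, of the same list, was nearly level, with log2 fold changes of −0.04, 0.02 and 0.00 across WT 29 °C, OE *APOLO-1*, then *vim1-3*. *SHR* had 0.34, 0.23 and 0.08 in that order, and neither gene was called. *GL2* and *RHD6* averaged only 4.46 and 2.00 CPM. The order of the 3 WT 23 °C libraries was the same for the root sum and for *HY5*, with A highest and B lowest. They had this order on the first principal component too (A −29.7, C −103 and B −149), so it was not particular to these genes. The wounding and jasmonate sums given with *PHYD* separated the same libraries in the other direction. The part of root tissue in the *HY5* result was not tested.

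**Figure D4:**
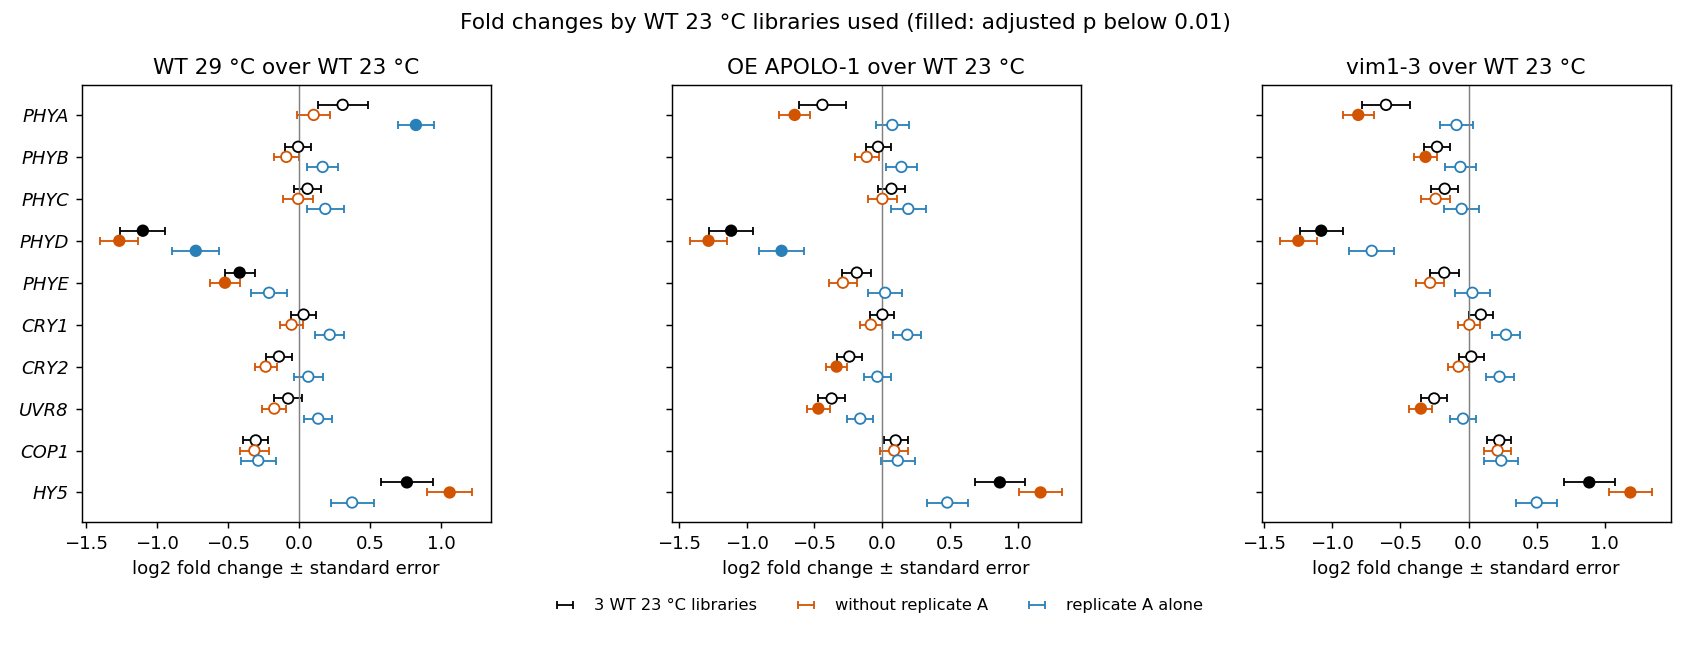
Log2 fold changes ± standard error of the 10 genes over WT 23 °C, for WT 29 °C, OE *APOLO-1* and lastly *vim1-3*, fitted with all 3 WT 23 °C libraries, without the library labelled A, and with that library as the only one. *PHYD* stays below 0 and *HY5* above 0 in each, while the *PHYA* values in OE *APOLO-1* and *vim1-3* are near 0 with the library labelled A alone and *COP1* moves by less than its SE.

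The promoters of *HY5* and *COP1* are shown because they belong to the ligase and its target, and each holds 1 ACGT core, in capitals, close to the start. The *HY5* run is chr5:3595074-3595323 on the minus strand and the *COP1* run is chr2:13977631-13977880 on the plus strand (RefSeq TAIR10.1, 250 bases before the annotated gene start).
HY5: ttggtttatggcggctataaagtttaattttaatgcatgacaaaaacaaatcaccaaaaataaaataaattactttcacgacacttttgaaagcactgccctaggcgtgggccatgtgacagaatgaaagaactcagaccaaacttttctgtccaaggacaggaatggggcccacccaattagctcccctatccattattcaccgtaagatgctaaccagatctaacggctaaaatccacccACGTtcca
COP1: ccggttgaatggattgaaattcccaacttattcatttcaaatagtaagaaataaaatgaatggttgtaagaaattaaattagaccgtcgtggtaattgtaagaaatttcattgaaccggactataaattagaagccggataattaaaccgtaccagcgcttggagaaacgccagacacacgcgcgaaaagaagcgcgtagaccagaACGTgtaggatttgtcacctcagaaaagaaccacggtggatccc
The core lay 8 bases before the annotated start in *HY5* and 44 bases before it in *COP1*. Neither is a G-box, a C-box or an A-box by the letters searched.

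Set against each other per kilobase, *HY5* exceeded *COP1* in WT 29 °C, with a ratio of 1.41 ± 0.27, and was near it in OE *APOLO-1* at 1.13 ± 0.08 and *vim1-3* at 1.05 ± 0.06, against 0.67 ± 0.22 in WT 23 °C (SD, n = 3 each). The lowest ratio outside WT 23 °C was 0.98 and the highest in WT 23 °C was 0.88. Across the 12 libraries *PHYD* and *HY5* went in opposite directions, with a Pearson correlation of log2 CPM of −0.91. Over the 9 libraries other than WT 23 °C it was 0.22, so the relation rests on WT 23 °C. *PHYA* and *COP1* also went in opposite directions, at −0.79 over 12 libraries and −0.96 over the 9. The libraries of a group share their genotype and temperature, and these correlations are descriptions without a test.

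The partners of these genes were taken from lists of named pathway genes. Of 11 genes for HYH and B-box factors, which act beside HY5, 0 were higher and 2 lower in WT 29 °C against WT 23 °C, with a median log2 fold change of −0.24 (all genes tested, −0.01). *HYH*, the close homologue of *HY5*, had 95.6, 96.7 and 102.1 normalized counts in WT 29 °C, 189.3, 180.8 and 244.7 in OE *APOLO-1* and 201, 267.6 and 245.7 in *vim1-3*, against 200.3, 199.3 and 160.1 in WT 23 °C. Only the WT 29 °C libraries were low, with a log2 fold change of −0.94 against WT 23 °C (SE 0.16, edgeR adjusted p = 0.000774), while *HY5* in the same comparison was higher. *BBX22*, a B-box cofactor of HY5, had 1286, 1321 and 1246 normalized counts in WT 29 °C, 2200, 2064 and 2298 in OE *APOLO-1* and 2376, 2459 and 2496 in *vim1-3*, against 2271, 2185 and 2401 in WT 23 °C. It too was low in WT 29 °C alone (log2 fold change −0.83, SE 0.07, edgeR adjusted p = 1.94e-05).

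In OE *APOLO-1* against WT 23 °C, 0 of these 11 genes were higher and 2 were lower, with a median of −0.13 (all genes, −0.03). *BBX28*, a B-box protein that restrains HY5, had 626.3, 519.2 and 669.1 normalized counts in OE *APOLO-1*, against 793.5, 1255 and 990.7 in WT 23 °C. Its log2 fold change was −0.74 (SE 0.15, edgeR adjusted p = 0.00456). The other was *BBX32*, with 1.27 to 4.65 normalized counts in OE *APOLO-1* and 7.77 to 55.9 in WT 23 °C. In *vim1-3* 0 of the 11 were called in either direction, with a median of −0.43 (all genes, −0.04).

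Of 10 genes known as HY5 targets, 9 were tested. None was higher in WT 29 °C and 1 was lower, *ELIP2*, an early light-inducible protein gene, with 5.25, 4.98 and 4.09 normalized counts in WT 29 °C and 39.7, 99.1 and 25.96 in WT 23 °C. In OE *APOLO-1* 1 was higher, the flavonol synthase gene *FLS1* with 127, 167.8 and 107 normalized counts in OE *APOLO-1* and 63.0, 44.3 and 36.8 in WT 23 °C, and 0 were lower. In *vim1-3* 0 were called. The medians of the 9 were −0.23, 0.22 and −0.06 across WT 29 °C, OE *APOLO-1*, then *vim1-3*. *BBX32*, *ELIP2*, *FLS1* and the chromophore gene *HY2* have means under 10 CPM and were chosen for naming after their values were seen.

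On the COP1 side, 9 genes for SPA proteins, DET1, DDB1, COP10 and CUL4 were tested, and 1 was lower in WT 29 °C while 0 were called in OE *APOLO-1*, 0 in *vim1-3* and 0 as higher in any group. The 1 was *COP10*, a ubiquitin-conjugating enzyme variant that acts with DET1, with 249.9, 246.2 and 237 normalized counts in WT 29 °C and 325.5, 300.5 and 313.7 in WT 23 °C. Its log2 fold change was −0.36 (SE 0.09, edgeR adjusted p = 0.00945). The medians of these 9 genes were −0.14, −0.02 and −0.01 across WT 29 °C, OE *APOLO-1*, then *vim1-3*. Of 10 genes for the COP9 signalosome, the complex that acts on cullin-based ligases, 0 were called against WT 23 °C in any of the 3 groups, with medians of 0.06, −0.08 and −0.16.

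Of 6 other photoreceptor genes, 1 was higher in WT 29 °C and in *vim1-3* and 0 were called in OE *APOLO-1*. It was *LKP2*, a blue-light-sensing F-box protein gene, with 444.2, 461.4 and 432.2 normalized counts in WT 29 °C and 420.4, 462.2 and 454.9 in *vim1-3*, against 312.6, 338.5 and 333.1 in WT 23 °C. Its log2 fold change was 0.44 in each (SE 0.09, edgeR adjusted p = 0.00246 in WT 29 °C and 0.00683 in *vim1-3*). The medians of the 6 were −0.10, −0.02 and 0.10 across WT 29 °C, OE *APOLO-1*, then *vim1-3*. Of 8 genes for phytochrome chromophore synthesis and nuclear import, 1 was lower in WT 29 °C, *HY2*, which makes the phytochrome chromophore. It had 70.4, 80.7 and 105.4 normalized counts in WT 29 °C and 121.7, 172.9 and 212 in WT 23 °C, and 0 of the 8 were called in OE *APOLO-1* or *vim1-3*. The medians of the 8 were 0.02, −0.07 and 0.02.

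The UVR8 repressor genes *RUP1* and *RUP2* were not called against WT 23 °C. *RUP1* had 557.6, 610.9 and 538.5 normalized counts in WT 29 °C, 345.5, 285.2 and 298.7 in OE *APOLO-1* and 580.7, 596.7 and 606.2 in *vim1-3*. The OE *APOLO-1* libraries lay below the other 2 groups without overlap. Its log2 fold change was −0.94 in OE *APOLO-1* against *vim1-3* (SE 0.14, edgeR adjusted p = 0.00273) and 0.88 in WT 29 °C against OE *APOLO-1* (SE 0.14, edgeR adjusted p = 0.00148). *RUP1* was named after its values were seen. *CIB1*, a cryptochrome partner, had 0 counts in all 12 libraries and was not tested.

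For each gene, the 2 genes of most similar pattern were found by the Pearson correlation of log2 CPM over the 12 libraries, among 11812 genes averaging 10 CPM (counts scaled to library size) or more. *PHYD* was closest to *NATA1* (0.987) and AT5G44720 (0.977), and *HY5* to *EIR1* (0.986), another name of the root marker *PIN2*, and *NRT1.9* (0.983). Without WT 23 °C the values were 0.713 and 0.472 for *PHYD* and 0.814 and 0.752 for *HY5*. As many as 281 genes exceeded 0.9 with *PHYD* and 347 with *HY5*, so both patterns were common among the genes compared. *PHYA* was closest to AT4G23680 (0.99) and AT3G50340 (0.984), and *COP1* to AT2G29320 (0.973) and AT5G65910 (0.972). For these the values over the 9 libraries other than WT 23 °C were as high, from 0.977 to 0.993.

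*PHYE* was closest to *XGD1* (0.949) and *FMO GS-OX4* (0.948), *CRY2* to AT4G04960 (0.947) and *EIN3* (0.94), and *UVR8* to *ORP4C* and *PCME* (0.963 each). *PHYB* was closest to *GH9C2* (0.914) and *ATML1* (0.898), *PHYC* to AT3G55760 (0.869) and AT1G67930 (0.864), and *CRY1* to AT4G16070 (0.889) and AT2G26800 (0.873). No gene exceeded 0.9 with *PHYC* or *CRY1*, and 1 did with *PHYB*. The libraries share group and depth within these correlations, which describe likeness only.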

How the data were processed

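The authors used Trimmomatic 0.36 on single 75-base reads, took out ribosomal RNA (SortMeRNA), aligned the rest to TAIR10 (STAR 2.5.2b) and counted exon reads per Araport11 gene with featureCounts (Subread 1.6.5). They deposited raw counts, with 1 library per file and no normalization. The strand setting of the counting is not given in the sources used here, and reads of overlapping genes on the other strand cannot be told apart. Groups and replicate letters come from the labels, and the 6 h of warmth from the study's methods.

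The test was edgeR 4.0.16 (R 4.3.3) on these counts: filterByExpr (20664 of 37336 genes), TMM factors, glmQLFit (robust) and glmQLFTest in 1 fit of 12 libraries, with Benjamini-Hochberg adjustment over all genes tested in each of 6 comparisons and a threshold of 0.01, the study's own. The study used DESeq2, which was run as an alternative (DESeq2 1.42.0). The standard error is the size of the log2 fold change divided by the square root of F. The code was tested on simulated data.

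The 10 genes and the lists were chosen with earlier results of these data known. All 10 genes are described. Pathway list genes are named if among the 2 largest changes per list and comparison with WT 23 °C and if they average 10 CPM or more, and exceptions are stated. Marker genes are named without this rule. Of 102 list genes, 8 without a symbol in the RefSeq TAIR10.1 annotation were left out. Coordinates and sequences are from RefSeq TAIR10.1, matched by gene ID, while the count files hold no coordinates. The alternatives tried were DESeq2, upper-quartile or RLE scaling, edgeR on 6 libraries, other count filters, a block for the replicate letter, each library left out, and 0.05 as the threshold. A fit of the 9 libraries other than WT 23 °C and a fit with the library labelled WT 23 °C A as the only one of its group were chosen after seeing the data. Figures used Python 3.11.15 and matplotlib 3.10.9.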

Additional observations from a re-analysis of the deposited data

How the results depend on the processing

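The number of the 10 genes called in WT 29 °C against WT 23 °C was 3 and became 1 (*PHYD*) with edgeR on 6 libraries and with DESeq2 on 6 libraries, and 1 to 3 when a library was left out. With RLE factors, upper-quartile factors, no filter or at least 10 counts in every library the number was 2 (*PHYD* and *HY5*), without *PHYE*. In OE *APOLO-1* against WT 23 °C it was 2 and became 0 with edgeR on 6 libraries, 1 with DESeq2 on 6 libraries, 1 with the library labelled WT 23 °C A alone, and 1 to 5 when a library was left out. In *vim1-3* against WT 23 °C it was 2 and became 0 with edgeR on 6 libraries, 0 with the library labelled A alone, and 0 to 5 when a library was left out. The highest of these counts, 5 for OE *APOLO-1* and 5 for *vim1-3*, came without the library labelled WT 23 °C A, a fit that also raised the background over all genes to 29.3% (OE *APOLO-1*, 10.3% in the fit of 12) and 26.8% (*vim1-3*, 6.63% in the fit of 12). Over all genes, edgeR on 6 libraries called 2 genes for OE *APOLO-1* and 1 for *vim1-3* against WT 23 °C, compared with 2126 and 1371 in the fit of 12. At a threshold of 0.05 the numbers against WT 23 °C were 4 in WT 29 °C (*COP1* added), 3 in OE *APOLO-1* (*UVR8* added) and 3 in *vim1-3* (*PHYA* added). The shares of all genes were then 35%, 22.7% and 20%. The count in WT 29 °C against OE *APOLO-1* was 1 and became 2 at a threshold of 0.05, 2 with upper-quartile factors, 2 with DESeq2 on 12 libraries, 2 with edgeR on 6 libraries, 3 with DESeq2 on 6 libraries, 3 with the 9 libraries other than WT 23 °C, 3 with the library labelled A alone, and 0 to 3 when a library was left out. It was 2 in WT 29 °C against *vim1-3* and 1 to 2 when a library was left out, and in OE *APOLO-1* against *vim1-3* it was 0 throughout. Over all genes, the fit of the 9 libraries other than WT 23 °C called 4264 genes in WT 29 °C against OE *APOLO-1*, 5726 in WT 29 °C against *vim1-3* and 2026 in OE *APOLO-1* against *vim1-3*, compared with 1689, 2816 and 387 in the fit of 12. With edgeR on 6 libraries these numbers were 3426, 6046 and 2146. The causes of these shifts were not tested.

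The 10 differences of single genes that were called in the fit of 12 had 223 values under alternatives, of which 142 passed and 81 did not. The 50 that were not called had 1127, of which 25 passed. These totals include the fit of 12 read at a threshold of 0.05, which the 10 called differences pass by definition. Some of the 25 passes also come from that threshold. The counts of alternative fits given for single genes leave it out. Of the called values 0 turned sign. In 63 values the sign differed with neither value past the threshold. Upper-quartile factors moved the median of all genes in WT 29 °C against WT 23 °C from −0.01 to 0.09 on the log2 scale.

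With the replicate letter as a replicate block, 1 gene (*PHYD*) was called in each of the 3 comparisons with WT 23 °C, 0 in WT 29 °C against OE *APOLO-1* and 2 in WT 29 °C against *vim1-3*. Deviations of libraries with the same letter correlated between −0.22 and 0.19. Libraries of different letters were not correlated for reference, so whether the letters pair the libraries cannot be told from these values. The lowest raw counts among the 10 genes were 73 and 103, both of *HY5*, in the libraries labelled WT 23 °C C and B, and the part of depth in its result was not tested.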
